A study of Mus musculus with 12 samples.

Results

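The Jak and Stat family was measured here as 9 genes, the transcription factors Stat2, Stat3, Stat4, Stat5a, Stat5b and Stat6 and the kinases Jak1, Jak2 and Tyk2, among 16916 genes kept for the comparison of mouse livers without and with hepatocyte Phgdh. The genes were chosen by family name, with Stat4 set against its paralogs, and Stat4 had drawn attention because of its difference between the genotypes in these same arrays, so that its difference is given below as a description and not as a test. Other members of both families were not analysed here. The scanner software marked all 13 probes of the 9 genes as well above background on each of the 12 arrays, so no member was lost to the filter on dim probes. Stat6 had 3 probes, Stat3 and Stat5b had more than 1, and each of the other genes had 1.

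The samples were livers of 30-week-old male C57BL/6 mice, 6 in each of 2 groups. Floxed mice carried homozygous conditional Phgdh alleles (Phgdh flox/flox) without Cre, and LKO mice were littermates with the same alleles and Cre driven by the albumin promoter (Alb+/Cre; Phgdh flox/flox), which deletes Phgdh, the first enzyme of serine synthesis, in hepatocytes but leaves it in the other cells of the liver. Mice of both groups were fed chow with casein, and RNA of each mouse was hybridised to 1 single-color Agilent array. The values below are log2 intensities after quantile normalization, a scale on which levels of different genes cannot be set against each other because probes differ in brightness.

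Jak kinases sit on the inner side of cytokine and hormone receptors, and when a ligand brings receptor chains together they phosphorylate the receptor and then the Stat proteins that bind to it. Phosphorylated Stats pair, enter the nucleus and switch on genes, among them the Socs genes and Cish, whose products shut the same receptors off. In liver, growth hormone acts through Jak2 and the Stat5 proteins, Il6 through Jak1 and Stat3 on acute-phase genes, and type I interferon through Jak1, Tyk2 and a complex that holds Stat2, whereas Stat4 is known mainly from T cells and natural killer (NK) cells answering Il12 and Stat6 from cells answering Il4 and Il13.

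The 12 arrays lay on 3 slides, with Floxed 1 to 4 on slide 1, Floxed 5 and 6 and LKO 1 and 2 on slide 2, and LKO 3 to 6 on slide 3, so that the genotypes met only on slide 2. Between 21614 and 24252 of 39429 probes were well above background on an array, and no spot was saturated. Alb, the serum albumin gene, ranged from 18.29 to 18.63 and Hnf4a, a hepatocyte transcription factor, from 14.55 to 15.42 over the 12 livers. Phgdh mRNA had a log2 intensity of 5.18 ± 0.23 in Floxed mice and 4.70 ± 0.41 in LKO mice (SD, n = 6 each), a difference of -0.48. On slide 2 alone the Phgdh difference was -0.055, so on this probe the lower level in LKO mice was seen only in those of slide 3. The reading rests on 1 dim probe of 2 on the array, at percentile 8.34 of the tested genes. By qRT-PCR and Western blot, the paper reports reduced Phgdh mRNA and protein in LKO liver. The arrays labeled LKO 1 (5.07) and LKO 2 (5.30) lay inside the Floxed range of 4.81 to 5.50. Values of the 9 genes are therefore also given without LKO 1 and LKO 2 where that changes a call or a direction or moves the difference by over 1.5 times. Without them every LKO array lies on slide 3 and every Floxed array on slide 1 or 2. Genotype and slide cannot be told apart in those values or calls. Whether the Phgdh probe lies in the deleted exons was not analysed here.

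Stat proteins bind DNA at short palindromes, and the promoter windows of Stat4, of Stat2 and of the feedback gene Socs3 are shown here for the letters they hold. RefSeq promoter windows (build GRCm38.p6) were at hand for all 9 genes, 12 windows in all, and the 250 bases before each start were searched on both strands for TTCNNNGAA, the general Stat palindrome, for TTCNNNNGAA, its wider form known from Stat6, and for GAAANNGAAA, the core of the interferon response element. Of 32851 windows of all genes, 7.02% held the first, 5.85% the second and 2.98% the third, and no letters of 1 motif overlapped another in the windows printed. Among the 12 windows of the family, 2 held a match, 1 of Stat2 and 1 of Stat4, beside 14.8% of all windows that held at least 1 of the motifs. The Stat2 window, chr10:128270248-128270497 on the plus strand, held TTTCAGTTTC from base -222 and TTCCCTAGAA from base -210. Stat4 has 2 windows on the plus strand, and the one at chr1:52007990-52008239 held GAAAGTGAAA from base -97 while the one at chr1:51986898-51987147 held none of the letters searched. Socs3, the feedback inhibitor switched on by Stat3, held TTCTTAGAA from base -154 in the window chr11:117969367-117969616 on the minus strand. Capitals mark the matches.
Stat2: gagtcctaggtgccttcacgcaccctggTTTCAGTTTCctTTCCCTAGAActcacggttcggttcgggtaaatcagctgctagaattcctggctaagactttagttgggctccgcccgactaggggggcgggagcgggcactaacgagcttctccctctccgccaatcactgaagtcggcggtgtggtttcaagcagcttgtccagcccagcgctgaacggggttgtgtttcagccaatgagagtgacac
Stat4, upstream start: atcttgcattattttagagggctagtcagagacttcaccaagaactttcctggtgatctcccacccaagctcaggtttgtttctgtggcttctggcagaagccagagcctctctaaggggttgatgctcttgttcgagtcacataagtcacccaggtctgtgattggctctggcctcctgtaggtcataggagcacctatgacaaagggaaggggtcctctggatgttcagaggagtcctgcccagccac
Stat4, downstream start: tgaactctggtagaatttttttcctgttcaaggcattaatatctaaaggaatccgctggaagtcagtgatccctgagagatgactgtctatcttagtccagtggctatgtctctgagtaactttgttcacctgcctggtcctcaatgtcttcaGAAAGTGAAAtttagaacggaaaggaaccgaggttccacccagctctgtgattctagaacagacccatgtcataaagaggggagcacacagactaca
Socs3: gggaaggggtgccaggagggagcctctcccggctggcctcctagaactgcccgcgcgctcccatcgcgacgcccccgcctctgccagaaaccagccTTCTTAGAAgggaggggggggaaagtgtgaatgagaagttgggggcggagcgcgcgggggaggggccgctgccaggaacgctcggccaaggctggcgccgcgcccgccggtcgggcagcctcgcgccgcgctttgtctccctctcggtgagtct
The windows of the other members and of Cish held none of these letters. Stat5b, Stat5a and Stat3 are direct neighbours on chromosome 11, and Stat2 and Stat6 both lie on chromosome 10, while Stat4 stands apart from them on chromosome 1. A match describes the letters only.

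Stat4 was the member with the largest difference in these livers. Its log2 intensity was 4.20 at the lowest, 5.12 at the median and 6.04 at the highest in the 6 Floxed mice, and 3.29, 4.27 and 4.63 in the 6 LKO mice. Of the 6 Floxed mice, 5 lay above every LKO mouse, whereas 4 of the 6 LKO mice lay inside the Floxed range, because Floxed 2 (4.20) was lower than 4 of them. The mean difference was -1.07 on the log2 scale (standard error 0.31, limma), a fold of 0.476. Among the 4 mice of slide 2 the difference was -0.78, with Floxed 5 at 5.08 and Floxed 6 at 5.16 against LKO 1 at 4.37 and LKO 2 at 4.32, and without these 2 LKO mice it was -1.23. With each mouse left out in turn the difference stayed between -1.25 and -0.88. With slide as a block it was -0.78 (95% interval -2.01 to 0.45). Bulk RNA cannot tell fewer cells of a type that carries Stat4 from less Stat4 RNA per cell.

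The single Stat4 spot was dim on every array. Its median scanner intensity was 83 to 164 on the Floxed arrays, over a local background of 63.5 to 69, and 79 to 95 on the LKO arrays, over 57.5 to 66.5. Its mean level lay at percentile 4.01 of the tested genes. On the arrays of LKO 3 and LKO 4, the lowest of all, Stat4 stood at 3.29 and 3.30, close to the lowest signal that the scanner software marked as well above background there (3.01 and 2.95). Background was also corrected by normexp on the median signal, with a constant of 50 added to every spot, which shrinks ratios of dim spots. The Stat4 difference was then -0.29 on the log2 scale (standard error 0.098).

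**Figure D1:**
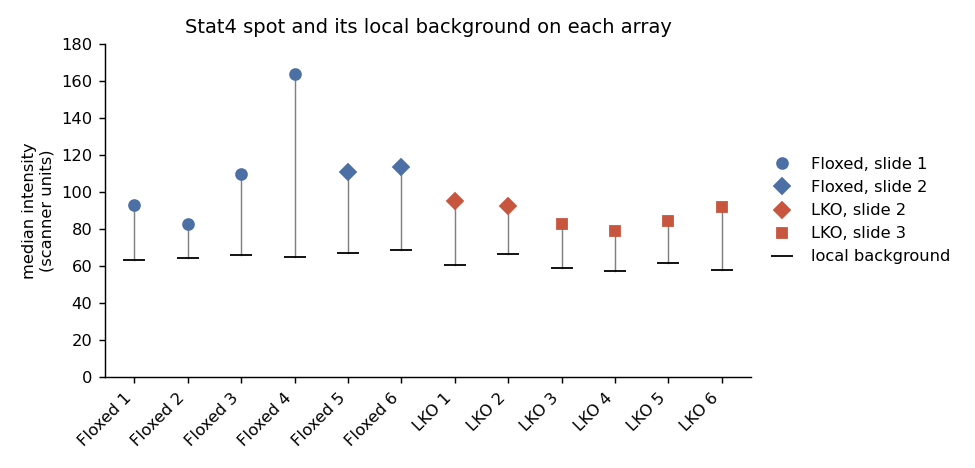
Median scanner intensity of the Stat4 spot (points, scanner units, axis from 0) and of its local background (dashes) on each of the 12 arrays. Floxed spots reach 164 and LKO spots stay between 79 and 95, while the background lies between 57.5 and 69.

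Stat5a, one of the growth hormone Stats, was the only other member past the criterion of the study's array methods (limma, p below 0.05 without adjustment), and it was higher in LKO mice. The log2 intensity was 8.31 at the lowest, 8.62 at the median and 8.71 at the highest in Floxed mice, and 8.63, 8.84 and 9.34 in LKO mice. Of the 6 LKO mice, 5 lay above every Floxed mouse, and LKO 6 (8.63) lay inside the Floxed range. The difference was 0.37 (95% interval 0.098 to 0.65), a fold of 1.30, with a limma p of 0.0118 and a Benjamini-Hochberg adjusted p of 0.410 over all genes. On slide 2 alone the difference was 0.51, in the same direction, but with slide as a block the p was 0.0512 and the call was lost.

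Stat5b, the neighbouring and closely similar gene that carries most of the growth hormone signal in liver, was not called. Floxed mice lay at 10.48 to 10.95 (median 10.73) and LKO mice at 10.70 to 11.15 (median 10.82), a difference of 0.16 (95% interval -0.069 to 0.39, adjusted p = 0.812 in limma). Its second probe gave 0.13 and followed the first over the 12 arrays with r = 0.899. Whether these probes tell the closely similar Stat5a and Stat5b transcripts apart was not tested.

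Stat3, which carries the Il6 signal to acute-phase genes, was read by a probe printed on 10 spots of each array, and the spots of 1 array differed by an SD of 0.028 to 0.060 on the log2 scale. The gene had a log2 intensity of 11.82 at the lowest, 12.02 at the median and 13.18 at the highest in Floxed mice, and 11.69, 11.88 and 12.16 in LKO mice. Floxed 1 (13.18) stood apart, and the other 11 mice lay within 11.69 to 12.27. The difference was -0.29 (95% interval -0.72 to 0.14, adjusted p = 0.824 in limma) and -0.099 (95% interval -0.34 to 0.14) without Floxed 1. A second, dimmer probe, made to another RefSeq transcript of Stat3 (NM_011486), gave -0.59 (95% interval -1.17 to -0.0028, adjusted p = 0.583 in limma), with Floxed 1 again the highest mouse at 6.96. That probe alone would pass the criterion, but the brighter probe stood for the gene.

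Stat2, the interferon Stat, was not called, and 1 mouse set its mean. The gene lay between 9.17 and 10.32 in 11 of the 12 mice and at 6.63 in LKO 4. The scanner read a median intensity of 154 over a background of 66 for that spot, against 419 to 1282.5 on the other 11 arrays, and the spot carried no outlier mark. The difference between the genotypes was -0.44 (95% interval -1.56 to 0.68, adjusted p = 0.948 in limma), and without LKO 4 it was 0.12 (95% interval -0.26 to 0.50), the other direction. Without LKO 1 and LKO 2 it was -0.73 (95% interval -2.04 to 0.58). A single probe on a single spot read Stat2, so this low value has no second reading on the array.

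Stat6 and the 3 kinases differed little between the genotypes. Stat6, the Il4 and Il13 Stat, was at 8.81 to 9.23 in Floxed and at 8.79 to 9.05 in LKO livers by its brightest probe. Its 3 probes gave differences of -0.054 (95% interval -0.24 to 0.13), -0.23 (95% interval -0.50 to 0.047) and -0.19 (95% interval -0.41 to 0.041), none of them called. Jak1, shared by the Il6 and interferon receptors, had a difference of 0.040 (95% interval -0.13 to 0.21, adjusted p = 0.972 in limma). Jak2, the growth hormone receptor kinase, had 0.048 (95% interval -0.16 to 0.26, adjusted p = 0.974 in limma). Tyk2, which serves the Il12 and type I interferon receptors, had -0.068 (95% interval -0.39 to 0.26, adjusted p = 0.975 in limma). The intervals of the 3 kinases leave room for changes of up to 0.26 upward and 0.39 downward on the log2 scale, and those of Stat6 for up to 0.50 downward. The directions of Stat6, by its brightest probe, and Jak1 turned on slide 2 (0.12 and -0.083). The dimmer Stat6 probes gave -0.0099 and -0.16 there and did not turn. Those of Jak2 and Tyk2 turned without LKO 1 and LKO 2 (-0.046 and 0.046). Without these 2 mice Stat6 was at -0.085 and Jak1 at 0.067, and neither was called.

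**Figure D2:**
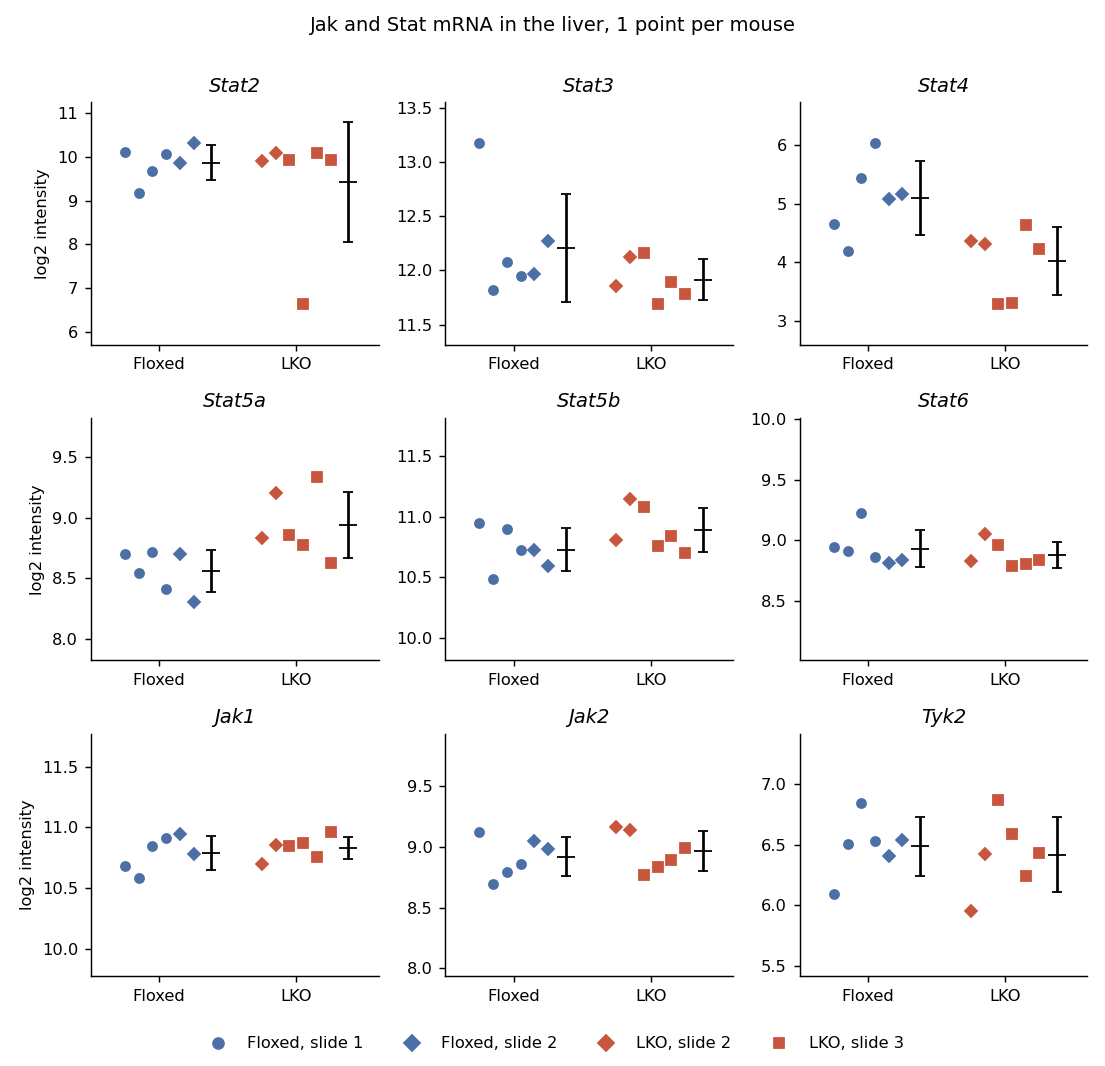
Log2 intensity of the 9 genes, 1 panel per gene with its own vertical axis and 1 point per mouse, colored by genotype and shaped by slide, with the group mean and SD (n = 6) as a black bar beside the points. In the Stat4 panel 5 of 6 Floxed mice lie above all LKO mice, in the Stat5a panel 5 of 6 LKO mice lie above all Floxed mice, and single mice stand apart for Stat2 (LKO 4, 6.63) and Stat3 (Floxed 1, 13.18).

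In all, 2 of the 9 genes were called, Stat4 lower and Stat5a higher in LKO mice, where 8.35% of all 16915 genes with an estimate were called (4.92% higher and 3.43% lower), and nothing is read from this count because Stat4 was taken up for this contrast. After Benjamini-Hochberg adjustment limma called 0 genes of the whole array, with 1413 at an unadjusted p below 0.05 and 1236 by the methods' t-test at that threshold, which called the same 2 members. After adjustment the methods' t-test called 1 gene, which was no member, and 0 genes when the methods' log2 difference of at least 1 was required too. With slide as a block, which rests on the 4 mice of slide 2, 0 members were called among 317 genes.

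**Figure D3:**
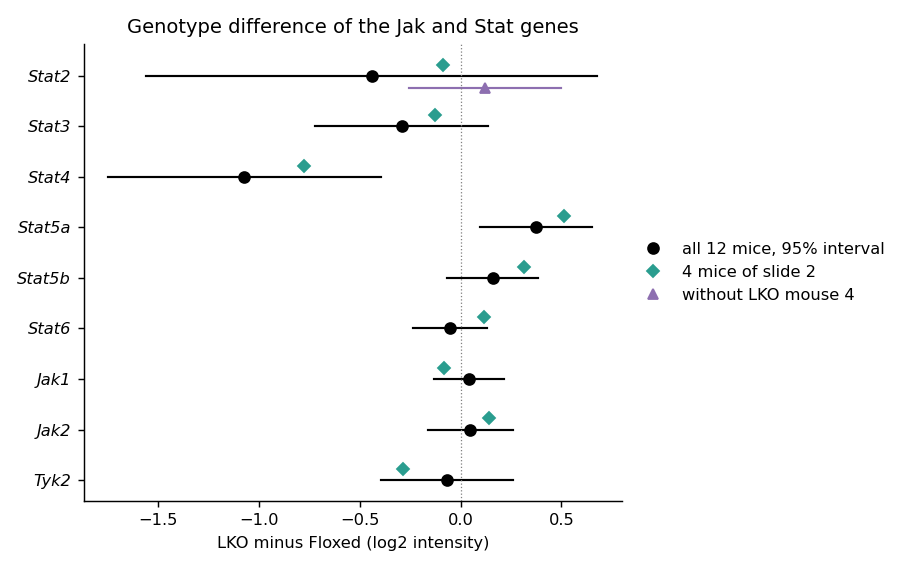
Difference of LKO and Floxed mice (log2 intensity, below 0 where LKO mice were lower) for each gene over all 12 mice (black points, lines are 95% intervals from limma), on slide 2 alone (green diamonds) and, for Stat2, without LKO 4 (purple triangle with its interval). Among the other 8 genes only the interval of Stat5a lies off 0, and Stat2 moves from -0.44 to 0.12 without that mouse.

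Of 31 cytokines and hormones that use the pathway, 6 were well above background on all arrays, and Clcf1, an Il6-type cytokine, was called lower in LKO mice with a difference of -0.85 (standard error 0.37, adjusted p = 0.572 in limma). Clcf1 was at 4.59 to 5.96 in Floxed livers and at 3.59 to 5.79 in LKO livers, and its call was lost in 10 of 21 settings with a test, leaving out LKO 4 among them. Ifng, the cytokine that Stat4 is best known to switch on, was well above background on 1 array only. Of 29 receptor genes tested out of 38, Il13ra1, a chain of the Il13 and Il4 receptors, was called lower (5.78 to 6.48 in Floxed mice and 5.28 to 6.07 in LKO mice, difference -0.42, adjusted p = 0.448 in limma). The list's median was -0.047, beside -0.0035 for all genes.

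The receptors upstream of each Stat were read whatever their result. Il12rb1 and Il12rb2, the chains of the Il12 receptor upstream of Stat4, had differences of -0.12 (95% interval -0.59 to 0.35) and 0.34 (95% interval -0.043 to 0.72), and neither was called. Il12rb2 was called higher in 6 of 21 settings with a test, namely scaling to the 75th percentile, the replicate block, and the fits without Floxed 2, without LKO 1, without LKO 4 and without LKO 1 and LKO 2, the last with 7.08% of all genes called higher. Il12rb1 was called lower in 1, slide as a block, with a difference of -0.75, where 0.881% of all genes were called lower. Ghr, the growth hormone receptor, lay between 13.49 and 14.01 in all 12 mice with a difference of -0.027 (95% interval -0.22 to 0.16). Il6ra and its partner Il6st had -0.40 and -0.081, the leptin receptor Lepr 0.19, Il4ra -0.15, and the interferon receptor chains Ifnar1 and Ifnar2 -0.044 and 0.0074, with none of them called. LKO 5 was the lowest mouse for Il6ra (10.13) and the highest for Lepr (13.45).

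Among the genes that shut the pathway off, 1 was called, lower in LKO mice. Of 18 inhibitors tested out of 20, 15 had a difference below 0, with a median of -0.13, beside 8658 of 16915 genes below 0 and a median of -0.0035 over all genes. Cish, a growth hormone-induced inhibitor, had a median of 10.67 in Floxed mice (8.27 to 12.02) and of 8.09 in LKO mice (7.42 to 11.29). Of the 6 LKO mice, 4 lay below every Floxed mouse, and LKO 5 (11.29) stood among the highest of all. The difference was -1.57 (standard error 0.73, adjusted p = 0.598 in limma), at the edge of the unadjusted threshold, and the call was lost in 13 of 21 settings with a test. Socs2, another growth hormone-induced inhibitor, had a median of 9.59 in Floxed mice and 8.23 in LKO mice, with a difference of -0.95 (95% interval -1.92 to 0.014) that was not called. Socs3 spread more widely in Floxed mice (8.02 to 10.33) than in LKO mice (8.39 to 9.13), with a difference of -0.64 (95% interval -1.40 to 0.12), and on slide 2 the difference was 0.025. Between 0 and 5 of the 18 were called lower over the 21 settings and 0 higher in any. The 5, without Floxed 2, were Socs2, Socs4, Socs5, Socs7 and Cish, where 4.27% of all genes were called lower. Without LKO 1 and LKO 2, where 5.77% of all genes were called lower, Socs1, Socs2 and Socs5 were, 3 of 18, and Cish was not. Socs2 was called lower in 6 of the 21 settings. Among 12 partners and cofactors, 2 were called lower, beside 3.43% of all genes. They were Ep300, an acetyltransferase that Stats recruit, with a difference of -0.49 (adjusted p = 0.307 in limma), and Sh2b2, an adaptor that binds Jak2, with -0.38 (adjusted p = 0.592 in limma). For Ep300, 5 of the 6 Floxed mice (6.78 to 6.94) lay above every LKO mouse (6.00 to 6.57), and Floxed 2 was at 6.29.

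Genes downstream of each Stat were read from lists of known targets, which other factors also drive. Among the Il12 and Stat4 targets, 9 of 17 were bright enough to test and 0 were called with a median of 0.092. Tbx21, the T-box factor of these cells, was at 3.97 to 5.02 in Floxed livers and at 3.83 to 5.23 in LKO livers. Among 21 interferon and Stat2 targets, 0 were called, 17 had a difference above 0 and the median was 0.079. Over all genes 8257 of 16915 lay above 0. Without LKO 4, Ifit3 and Dhx58 were called higher (4.18% of all genes were). Among 27 Il6 and Stat3 targets, 0 were called and the median was -0.11. Without Floxed 2, where 4.27% of all genes were called lower, Fga, Fgg and Cebpd were too. Without LKO 5, where 6.98% of all genes were called, Cebpd was called lower and Pim1 and Junb higher. Saa1, an acute-phase protein, lay between 12.17 and 13.72 with Floxed 1 the highest, and its difference was -0.018 (95% interval -0.50 to 0.47).

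The growth hormone and Stat5 targets had the lowest median of the target lists, -0.28, with 14 of 18 tested genes below 0. Over all genes 8658 of 16915 lay below 0. The median of these targets was -0.13 without LKO 5 and -0.12 with slide as a block. Of these 18, 2 were called, both lower in LKO mice, Cish and Cyp2d9, beside 3.43% of all genes called lower. Cyp2d9, a male-biased cytochrome P450, was at 13.64 to 14.18 in Floxed and 13.16 to 13.88 in LKO livers (difference -0.31, adjusted p = 0.565 in limma). Igf1, the main hormone that growth hormone induces in liver, differed by -0.048 (95% interval -0.22 to 0.12). Over the 21 settings 0 to 5 of the 18 were called lower, 5 without LKO 1 and LKO 2 (Socs2, Cyp2d9, Hsd3b5, Slco1a1 and C6, beside 5.77% of all genes) and 0 without Floxed 3, without Floxed 4 and with slide as a block, whereas within slide 2 the list's mean deviation differed by 0.027. By mouse, the list's mean deviation was lowest in LKO 4 (-0.57) and LKO 5 (-0.48), and the other 10 mice lay between -0.17 and 0.40. Of 10 Il4 and Stat6 targets, Fcer2a, the low-affinity IgE receptor of B cells, was called higher with a difference of 0.86 (adjusted p = 0.333 in limma), and Cish, which is on this list too, was called lower. Fcer2a was at 3.76 to 4.89 in Floxed mice and at 4.39 to 5.77 in LKO mice, and 4 LKO mice, those of slide 3, lay above every Floxed mouse.

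**Figure D4:**
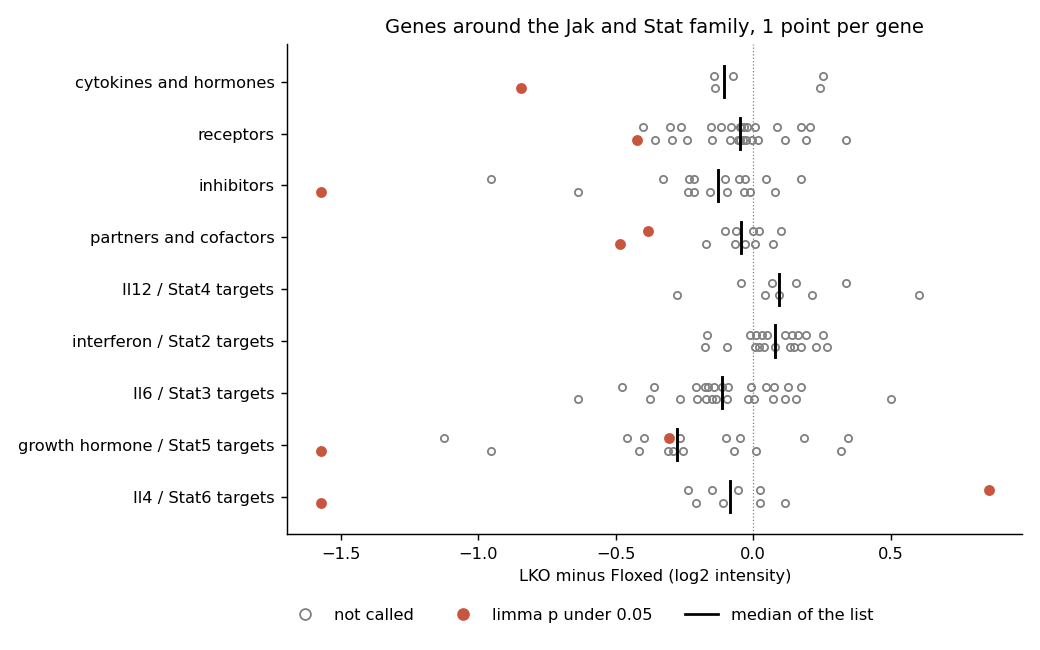
Difference of LKO and Floxed mice (log2 intensity, horizontal) for every tested gene of 9 lists around the family, 1 point per gene, filled red where limma gave an unadjusted p below 0.05, with the list's median as a black bar. The lists hold 0 to 2 called genes each, Cish is on 3 lists, and the growth hormone targets have the lowest median (-0.28).

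How the members varied from mouse to mouse was described by the correlation of deviations from the genotype means over the 12 arrays, which share labeling, slides and normalization. Stat2 had r = 0.768 and rho = 0.720 with the interferon list, and r = 0.531 without LKO 4 and Floxed 2, the mice farthest from its median. Its r with other lists was 0.815 (rho = 0.776, and r = 0.582 without these mice) with the T cell list and 0.672 with the NK cell list. In LKO 4 the mean deviation from the 12-mouse mean was -0.39 for the interferon list, -0.51 for the T cell list, -0.45 for the NK cell list and -0.57 for the Kupffer cell list, and the part of these cells in the low Stat2 value was not tested. Floxed 2, the lowest Floxed mouse for Stat2 (9.17), had the lowest interferon list of all (-0.43). Stat3 had r = 0.723 with its targets, but rho was 0.385 and r was 0.361 without Floxed 1 and LKO 3, and r was 0.714 with the Il4 and Stat6 targets and 0.708 with the Il12 and Stat4 targets. Stat5b had r = 0.629 (rho = 0.517) with the growth hormone targets, beside 0.632 with the receptors and 0.594 with the interferon list, and Stat5a had r = 0.0961 with the growth hormone targets. Jak2 and Tyk2 moved against each other (r = -0.724), and Stat5b moved with Stat6 (r = 0.670) and with its neighbour Stat3 (r = 0.651). Stat4 had its highest r among the members with Stat2 (0.517), and LKO 4 was low for both.

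**Figure D5:**
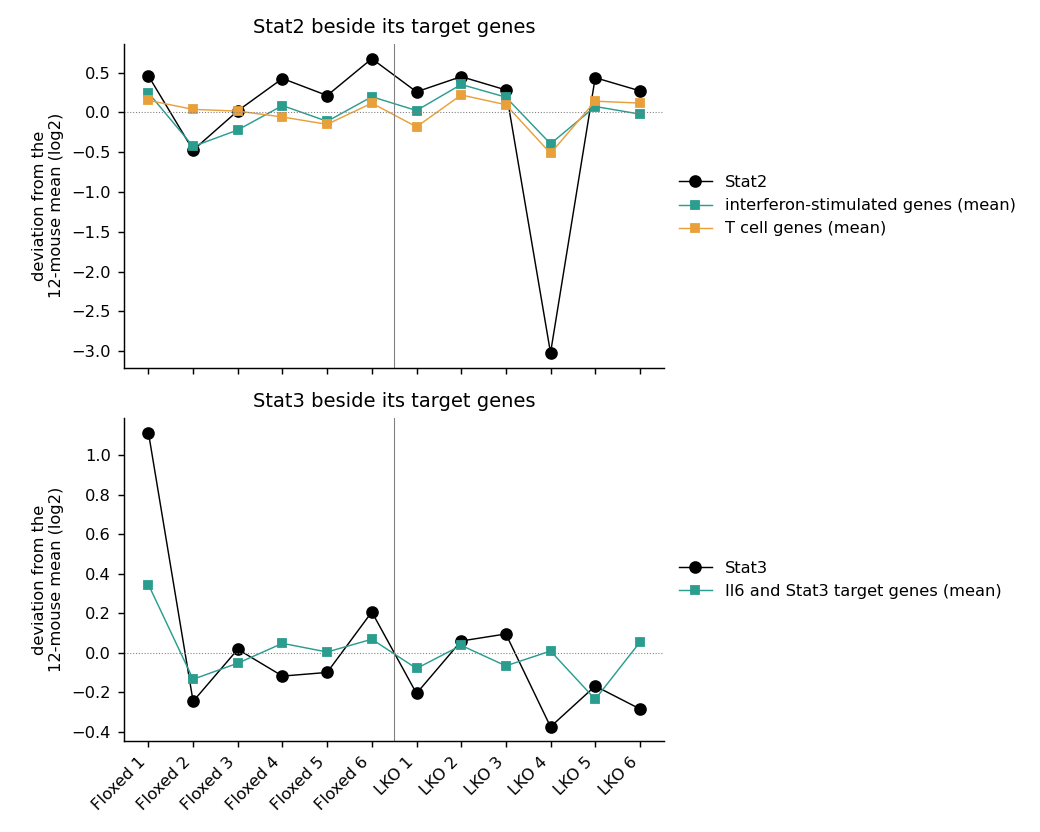
Deviation of Stat2 with the interferon and T cell lists (upper panel) and of Stat3 with the Il6 target list (lower panel) from the mean over 12 mice (log2 intensity, vertical), mouse by mouse, with Floxed mice left of the line. LKO 4 is the lowest mouse of Stat2 and of the T cell list, and Floxed 1 is the highest of Stat3 and of its target list.

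The deviations of Stat4 were set beside genes of the cells it is known from. Its r was 0.211 with 11 T cell genes, 0.0341 with 6 NK cell genes and -0.0285 with its own target list, and rho was 0.112, -0.182 and -0.0769. Without Floxed 2 and LKO 3, the mice farthest from the median of Stat4, r was 0.418, 0.456 and 0.122. Of the lists compared, Stat4 had its highest r with the Kupffer cell list (0.537, and 0.407 without these 2 mice). In the T cell list 8 of 11 tested genes had a difference below 0, with a median of -0.16. In the NK cell list 2 of 6 did (median 0.068), and in the Kupffer cell list 14 of 16 (median -0.079). Over all genes 8658 of 16915 lay below 0, with a median of -0.0035. Cd3e, a CD3 chain of the T cell receptor complex, had a median of 10.39 in Floxed and 10.36 in LKO mice and a mean difference of 0.16. For Nkg7, a granule protein of killer cells, the medians were 9.80 and 9.87. Of the 11 T cell genes 2 were called, beside 8.35% of all genes. Cd6 was higher (difference 0.78, adjusted p = 0.241 in limma) and Tcf7 lower (-0.41, adjusted p = 0.383 in limma). Of the 6 NK cell genes 0 were called, and Gzma ranged from 5.74 to 7.35 over both groups. The summed intensity of the T cell list was 13.86 to 15.46 in Floxed mice and 13.90 to 14.75 in LKO mice on the log2 scale. That of the NK cell list was 10.06 to 10.43 and 10.13 to 10.55. In such sums the brightest probes weigh most, so they do not give cell levels. Cd8a was well above background on 3 arrays, Cd79a, a chain of the B cell receptor complex, on 6, and Ncr1, which defines NK cells, on 0. The Kupffer cell markers Clec4f (11.76 to 12.50) and Adgre1 (8.23 to 9.91) overlapped between the genotypes.

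The 5 genes whose deviations were most like those of Stat4, of 12508 compared, were Fam111a, a protease (r = 0.866), Slc25a17, a peroxisomal carrier (r = 0.861), Pigr, the antibody transporter of epithelia (r = 0.861), Tars, a tRNA synthetase (r = 0.857), and Ppp1r36, a phosphatase subunit (r = 0.854). Ppp1r36 was the only one of them called, with a difference of -1.58 (standard error 0.40, adjusted p = 0.273 in limma), from 4.46 to 6.71 in Floxed mice and 3.50 to 5.43 in LKO mice. Those most like Stat3 were Btd, biotinidase (r = 0.952), Pfkp, a glycolytic kinase (r = 0.911), Ift46 (r = 0.904), Trafd1 (r = 0.903) and Slc27a5, a bile acid ligase (r = 0.900). All 5 had their highest value in Floxed 1, as Stat3 had, and none of them was called.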

How the data were processed

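Total RNA from 12 livers was measured on 12 single-color Agilent arrays, grouped by the genotype in the sample titles. The authors deposited, for each array, spot intensity values of the scanner software (Feature Extraction, version 9.5.1.1 in the submitters' processing notes and 10.7.1.1 in the file headers), background-subtracted and not yet normalized, together with their own quantile-normalized intensity table on a linear scale. RNA was prepared with RiboPure per the study's methods and with TRIzol and a Promega system per the labels.

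From these files, control spots were left out, the processed signal was put on the log2 scale and quantile-normalized, outlier spots (0.298%) were set missing, and spots of a probe were averaged. Of 39429 probes, the 20404 that every array marked as well above background entered, named by RefSeq accession (94.3% of 28389 matched GRCm38.p6), and the brightest probe stood for a gene. Genotypes were compared with limma 3.58.1 in R 4.3.3 (lmFit, eBayes, no covariates), with Benjamini-Hochberg adjustment over 16915 genes (1 more had no estimate). The methods filtered on a detection p-value and called genes at a limma p below 0.05, and elsewhere name a Student's test on adjusted p with a log2 difference of at least 1. The filter used the background mark instead. The code was tested on simulated data. The number of arrays limits the precision. Named genes were the 9 members, Phgdh, up to 4 called genes of each list, fixed receptors, targets and markers, and the 5 genes most like Stat4 and Stat3; list genes beyond these are named where a left-out mouse changed a count, chosen after their values were seen. Members and lists were chosen with earlier results of these data known. The alternatives covered normalization, background, the authors' table, filter, outliers, probes, slide, replicate number, threshold, the methods' t-test and each array left out. Leaving out LKO 1 and LKO 2, the adjusted forms of the methods' t-test, and every alternative for list medians, were added after the data were seen.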

Additional observations from a re-analysis of the deposited data

Results flagged for a closer look

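Among 50 groups of 6 mice examined by the gap of the extreme mouse relative to the group's range, 4 stood out, where chance gives about 2.5. Stat2 in LKO 4 was at 6.63, with the nearest other LKO mouse at 9.91. Stat3 in Floxed 1 was at 13.18, with the nearest other Floxed mouse at 12.27. Stat6 in Floxed 3 was at 9.23, with the next at 8.94. Ep300 in Floxed 2 was at 6.29, with the next at 6.78.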

How the results depend on the processing

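The Stat4 difference kept its direction in every setting run. All settings used the arrays in which Stat4 was singled out, so this lends the difference no support. It moved by more than the spread between mice under normexp alone (-0.29). With slide as a block it was -0.78 (95% interval -2.01 to 0.45). With each array left out it ranged from -1.25 to -0.88. The count of called members was 2 in every setting except that it was 0 with slide as a block and 0 after adjustment in limma or in the methods' t-test, with or without the log2 difference of at least 1. The background count of genes was 317 with slide as a block, 2791 of 32523 without the filter on dim probes and 2173 without LKO 1 and LKO 2. Stat5a was called with each array left out (0.29 to 0.44) but not with slide as a block (0.51). None of the other 7 genes was called in any setting. With each array left out, Jak1 ranged from -0.0017 to 0.071, Stat2 from -0.58 to 0.12, Stat6 from -0.089 to 0.0053 and Tyk2 from -0.16 to 0.025. Jak1 turned to -0.083 with slide as a block and on slide 2 alone and to -0.0017 without Floxed 2. Stat6, by its brightest probe, turned to 0.12 with slide as a block and on slide 2 alone and to 0.0053 without Floxed 3. Tyk2 turned to 0.0031 without Floxed 3, 0.025 without LKO 1 and 0.046 without LKO 1 and LKO 2. Jak2 turned to -0.046 without LKO 1 and LKO 2, and Stat2 to 0.12 without LKO 4. The call of Cish was lost in 13 of 21 settings with a test, that of Sh2b2 in 12, Clcf1 in 10, Cyp2d9 in 8, and those of Ep300, Fcer2a and Il13ra1 in 1, the slide block. These 21 settings leave out the adjusted thresholds and the methods' t-test. After adjustment none of these genes was called. By the methods' t-test without adjustment Cish, Sh2b2, Clcf1 and Cyp2d9 were not called. With slide as a block the median of the cytokine list was 0.050 and that of the Il4 and Stat6 targets 0.054, and without Floxed 3 the former was 0.042. The cause was not tested, except that the slide block rests on 4 mice and that without LKO 1 and LKO 2 the genotypes share no slide.

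The replicate numbers were not taken to pair the samples. No source ties a number to a litter, although the animal numbers in the titles are adjacent within each pair and the mice were littermates. Correlations of same-numbered mice ranged from -0.24 to 0.32, passed 0.1 in 3 of 6 pairs and were the best for their number in 2. Same-numbered mice always lay on different slides, so these correlations can carry slide differences and cannot settle the pairing. With the replicate block the Stat4 difference was -1.07, 2 members and 1428 genes were called. Under it Cish and Cyp2d9 were no longer called, and Socs2, Susd4 and Il12rb2 were. A signal near background limits Stat4, Clcf1, Fcer2a, Tbx21, Phgdh and Ppp1r36, and a single spot limits Stat2.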
